A study of Mus musculus with 9 samples.

Results

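Obstructed kidneys of mice without Notch3 were set against obstructed kidneys of wild-type mice, across all genes that the arrays measured. The arrays were chosen by their titles: 3 of Notch3-/- kidneys and 2 of wild-type kidneys, 5 of the 9 arrays of the study. All 5 came from mice 12 to 16 weeks old whose right ureter had been tied off for 5 days (unilateral ureteral obstruction, UUO), and RNA of the kidney cortex was labelled with Cy3. The other 4 arrays are of healthy kidneys, 2 wild-type and 2 Notch3-/-, with no ligation named for them in the labels. The design text says that untouched left kidneys were collected for comparison, but the labels do not tie an array to an animal. Neither the strain nor the way in which Notch3 was inactivated is given in the sources used here, and no source states whether each array stands for its own mouse. The p-values therefore cover the spread between these arrays, some or all of which may be technical. The design text names fibrosis genes, cytokines, chemokines and Notch receptors as the genes to be compared between the obstructed groups.

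Notch receptors are cut when a ligand of the Jagged or Delta-like type on a neighbouring cell binds them. The freed inner part joins the DNA-binding protein Rbpj and switches on genes of the Hes and Hey families. Notch3 is best known from the contractile cells of arteries and from pericytes, and obstruction is a standard way to cause inflammation and scarring of the kidney.

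Levels are given as log2 signal relative to the array's 75th percentile, so a level of 0 lies at that percentile. Differences are log2 differences, Notch3-/- UUO minus wild-type UUO, with the standard error of a limma fit to all 9 arrays. P-values were adjusted by the Benjamini-Hochberg method across 23878 genes and unnamed transcripts, of which 16603 have a symbol, and a gene passed at an adjusted p under 0.05. Between 67.7% and 73.2% of 43020 spots lay well above background on the 5 arrays, with 0 saturated spots, and precision is limited by how few arrays there are. Umod, the kidney's own marker of the thick ascending limb, was bright on all 5 arrays, from 6.42 to 7.30.

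The 5 arrays were not alike within their groups, and this bears on each result below. Both wild-type UUO arrays lay on 1 slide and the 3 Notch3-/- UUO arrays on another, scanned in separate campaigns, so genotype, slide and campaign cannot be told apart. Notch3-/- replicates 2 and 3 differed by over 2-fold at 811 genes, while replicates 1 and 2 differed at 2595. Xist, which female cells make from their silenced X, was at -8.64 on Notch3-/- replicate 1 and at -8.31 and -7.87 on the wild-type arrays, but at 0.18 and 0.00 on replicates 2 and 3. The Y-linked Ddx3y had the opposite pattern, with -3.80 and -3.67 there against -0.03 on replicate 1. The design text describes sex-matched mice. Replicates 2 and 3 also lay above all 7 other arrays for 17 of 19 adrenal cortex markers, whose summed signal was 321 and 395 there and 18.2 to 19.5 on the other 3 UUO arrays. Replicate 1 in turn lay below the other 4 UUO arrays for 14 of 18 adipocyte markers and 20 of 21 immediate early genes, and above them for 37 of 38 genes of oxidative phosphorylation and the citrate cycle. It also lay below them for 19 of 23 collagens, 29 of 35 matrix glycoproteins and 20 of 29 tubular injury markers. For 38 of 47 proximal tubule and 28 of 32 distal nephron markers it lay above them. On the main axis of variation over all arrays (first principal component, 54.1%), replicate 1 lay at 11.3. The other UUO arrays lay at 58.6 to 92.4 there and the healthy arrays at -92.5 to -69.2. What these marks add to the differences between the genotypes was not tested, and the medians of most gene lists described below are therefore also given for replicates 1, 2 and 3 apart.

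Notch3 itself was low on every Notch3-/- array. Its level was 0.92 and 0.68 in wild-type UUO kidneys and -4.30, -3.74 and -3.63 in Notch3-/- UUO kidneys, a difference of -4.69 ± 0.24 (SE; limma, adjusted p = 0.00401). The groups lie far apart, and the fold between their means is 25.7. The 1 probe for Notch3 stayed well above background on all 3 Notch3-/- UUO arrays, and its position relative to the inactivated stretch is unknown here. In healthy kidneys the difference was -4.81 ± 0.27, with levels of -0.26 and -0.50 against -4.98 and -5.39.

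**Figure D1:**
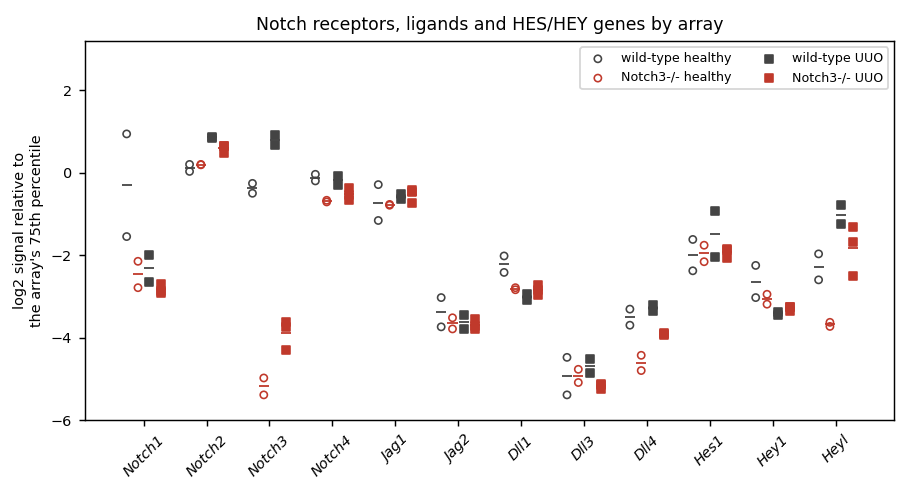
Log2 signal relative to the array's 75th percentile (vertical axis) of Notch receptors, ligands and Hes and Hey genes on all 9 arrays. Circles are healthy and squares obstructed kidneys, dark wild-type and red Notch3-/-, and short lines are group means. Notch3 is the only one of these genes past the threshold between the obstructed groups, with Notch3-/- arrays at or below -3.63 and wild-type arrays at or above 0.68.

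No other Notch receptor or ligand passed. Notch4, the receptor of endothelial cells, stood at -0.09 and -0.29 in wild-type UUO kidneys and at -0.53, -0.67 and -0.38 in Notch3-/- UUO kidneys, a difference of -0.34 ± 0.14 (limma, adjusted p = 0.282). Its groups do not overlap, nor do those of Notch2, which differed by -0.27 ± 0.12, and of Notch1, which differed by -0.52 ± 0.67. The endothelial ligand Dll4 came nearest to the threshold: it stood at -3.22 and -3.36 in wild-type and at -3.92, -3.89 and -3.93 in Notch3-/- UUO kidneys, a difference of -0.62 ± 0.17 (limma, adjusted p = 0.165). Dll4 differed by -1.11 ± 0.19 in healthy kidneys. The ligands Jag1 and Jag2 overlapped between the groups, with differences of 0.04 ± 0.25 and -0.07 ± 0.24, and so did Dll1 with 0.17 ± 0.16. In all, 6 of the 9 receptors and ligands, Notch3 included, lay lower on every Notch3-/- array than on both wild-type arrays and 0 lay higher. Over all 23878 genes the groups did not overlap at 22.9% with Notch3-/- lower and at 20.7% with Notch3-/- higher.

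Of the 30 measured pathway components behind the receptors, 8 lay higher (26.7%) and 4 lower (13.3%) without overlap, against 20.7% and 22.9% of all genes. None passed (limma; 1 with an unadjusted p under 0.05). Their median difference was 0.03, and that of all genes was 0.00. Heyl, the target gene most closely tied to smooth muscle, stood at -0.78 and -1.25 in wild-type UUO kidneys and at -2.50, -1.67 and -1.33 in Notch3-/- UUO kidneys, a difference of -0.82 ± 0.37 (limma, adjusted p = 0.326). Replicate 1 was the lowest and replicate 3 lay close to wild-type replicate 2. The target Hes1 differed by -0.45 ± 0.37, with its wild-type arrays at -0.92 and -2.04 and its Notch3-/- arrays between -2.07 and -1.86. Hey1 differed by 0.12 ± 0.23. Hes5, a further target, stood at -5.23 and -5.19 against -5.98, -6.68 and -6.48, a difference of -1.17 ± 0.52, and was well above background on only 1 of the Notch3-/- UUO arrays. Aph1a, a subunit of the enzyme that cuts Notch receptors, had the smallest p of these genes, at 0.44 ± 0.14 (limma, adjusted p = 0.207). Rfng, which adds sugars to Notch receptors, differed by 0.41 ± 0.18. The regulator Dtx1 differed by 1.43 ± 0.62, with replicate 1 at -3.62 beside wild-type arrays at -4.09 and -3.63, and replicates 2 and 3 at -1.84 and -1.82.

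Across all genes, Notch3-/- UUO kidneys had 19 higher (0.0796%) and 52 lower (0.218%), together 0.297% of those tested. With an unadjusted p under 0.05 there were 1757 higher (7.36%) and 2248 lower (9.41%). Of the 71 genes that passed, 29 have a symbol, 11 of them higher and 18 lower. For 70 of the 71 the arrays of both groups do not overlap, and the remaining transcript has a missing wild-type value. The count depended on single arrays: it was 328 without Notch3-/- replicate 1, 5 without replicate 2, 2 without replicate 3, 7 without wild-type replicate 1 and 1 without wild-type replicate 2. It was 0 without Notch3-/- replicates 2 and 3 (limma, lowest adjusted p = 0.0576, while 3404 had an unadjusted p under 0.05).

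**Figure D2:**
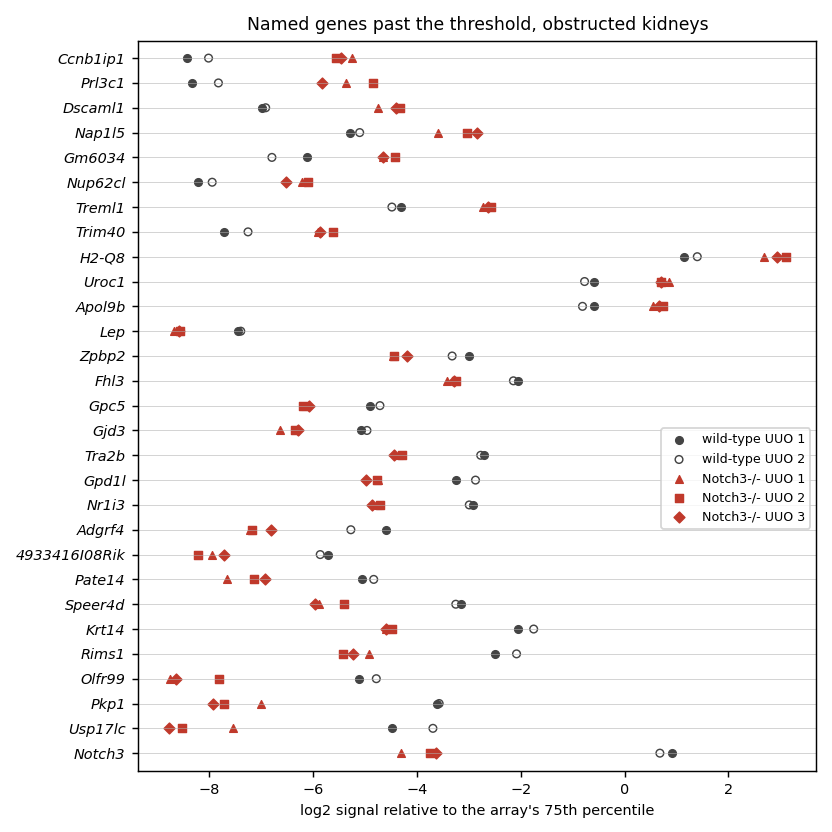
Log2 signal relative to the array's 75th percentile (horizontal axis) of the 29 named genes that passed between the obstructed groups, 1 row a gene, ordered by the difference. Dark filled and open circles are the 2 wild-type UUO arrays and red symbols the 3 Notch3-/- UUO arrays. No gene shows an overlap of the groups, from Ccnb1ip1 with 2.79 at the top to Notch3 with -4.69 at the bottom.

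Krt14 and Pkp1, both known from stratified epithelium, were among the lower genes. Krt14, a keratin of basal epithelial cells, stood at -2.05 and -1.75 in wild-type UUO kidneys and at -4.60, -4.48 and -4.60 in Notch3-/- UUO kidneys, a difference of -2.66 ± 0.21 (limma, adjusted p = 0.0155). The 3 Notch3-/- arrays lay close together. In wild-type kidneys obstruction had raised Krt14 by 2.73 (limma, adjusted p = 0.00121). Pkp1, a desmosome protein of stratified epithelium, stood at -3.61 and -3.57 in wild-type UUO kidneys and was not well above background on any Notch3-/- UUO array, where it stood at -7.00, -7.71 and -7.92. It was at least 8.43-fold lower there (limma, adjusted p = 0.0413). Such a bound sets each dim array to the lowest signal that was well above background on it, or to the gene's own signal where that is higher.

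Other lower genes with clear signal in wild-type kidneys belong to various classes. Rims1, a scaffold of synaptic vesicle release, stood at -2.49 and -2.08 in wild-type and at -4.93, -5.42 and -5.23 in Notch3-/- UUO kidneys, a difference of -2.90 ± 0.24 (limma, adjusted p = 0.0155). Its second probe gave -0.89 ± 0.61. Nr1i3, the nuclear receptor CAR that governs drug-metabolising enzymes, stood at -2.92 and -2.99 against -4.75, -4.71 and -4.87, a difference of -1.82 ± 0.17 (limma, adjusted p = 0.0256). The Nr1i3 groups are tight and well apart. Gpd1l, an enzyme related to glycerol phosphate dehydrogenase, differed by -1.77 ± 0.18, and Tra2b, a splicing regulator, by -1.61 ± 0.20. Fhl3, a LIM domain protein of muscle, stood at -2.06 and -2.14 against -3.41, -3.25 and -3.28, a difference of -1.21 ± 0.15 (limma, adjusted p = 0.0413), while its second probe gave 0.20 ± 0.26. The connexin gene Gjd3 differed by -1.40 ± 0.15 and the glypican gene Gpc5 by -1.34 ± 0.17. The sperm protein gene Zpbp2 differed by -1.21 ± 0.15, and its second probe by -0.04 ± 1.02. Speer4d, a member of a family of near-identical genes, differed by -2.55 ± 0.31, with 1.52 ± 0.50 by its second probe, so its value is uncertain.

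Several lower genes were not well above background on any Notch3-/- UUO array. Olfr99, an olfactory receptor gene, was at least 3.29-fold lower, the adhesion receptor gene Adgrf4 at least 3.34-fold, Pate14 at least 3.31-fold and 4933416I08Rik at least 1.85-fold. Usp17lc, of a multicopy family of deubiquitinases, was at least 6.01-fold lower, a value that binding of its relatives to the probe could blur. Lep, the leptin gene, was dim in both groups, at -7.44 and -7.39 against -8.67, -8.56 and -8.57. Its difference of -1.18 ± 0.14 passed (limma, adjusted p = 0.0407) but lies wholly below background, and with normexp background correction it was 0.01.

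Among the higher genes, 5 were well above background on both wild-type arrays: H2-Q8, Treml1, Apol9b, Uroc1 and Nap1l5. H2-Q8, a class I histocompatibility gene, stood at 1.15 and 1.40 in wild-type UUO kidneys and at 2.68, 3.1 and 2.93 in Notch3-/- UUO kidneys, a difference of 1.63 ± 0.17 (limma, adjusted p = 0.0315). The groups are more than 1 log2 unit apart, but H2-Q genes are close copies of each other and a probe may read several. Treml1, a receptor of platelets, stood at -4.30 and -4.48 against -2.72, -2.58 and -2.63, a difference of 1.75 ± 0.18 (limma, adjusted p = 0.0261). Apol9b, an interferon-induced apolipoprotein L gene, is described with the interferon genes below. Uroc1, an enzyme of histidine breakdown made in the proximal tubule, stood at -0.58 and -0.77 against 0.85, 0.70 and 0.71, a difference of 1.43 ± 0.16 (limma, adjusted p = 0.0339). Obstruction had lowered Uroc1 in wild-type kidneys, with a log2 change of -2.17. Nap1l5, an imprinted gene of the nucleosome assembly family, stood at -5.28 and -5.10 against -3.59, -3.03 and -2.85, a difference of 2.03 ± 0.22, and its second probe pointed the same way.

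The other 6 higher genes were dim in wild-type kidneys. Ccnb1ip1, a ubiquitin ligase of the cell cycle and of meiosis, was at least 1.47-fold higher, and Prl3c1, a prolactin relative, at least 1.56-fold. Gm6034 was at least 2.57-fold and Trim40 at least 1.14-fold higher. Nup62cl differed by 1.80 ± 0.23 with no bound above 1. Dscaml1, a cell adhesion gene, was at least 2.81-fold higher by 1 probe, while its other probe gave -4.87 ± 0.50 and the mean of both -1.21, so no direction can be given for it. Among the 42 unnamed transcripts that passed, probe A_55_P2016962 had the smallest adjusted p of all: it was at least 4.22-fold higher (limma, adjusted p = 0.000828). Probe A_55_P2023334 was at least 2.21-fold lower (limma, adjusted p = 0.0135).

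The healthy kidneys share no array with the obstructed ones, but they share the split of genotypes between scan campaigns. Notch3-/- healthy replicate 1 also lay on the slide of the Notch3-/- UUO arrays. Both comparisons use the same estimate of each gene's spread, so they are not independent. How many of all genes had the same sign in both was not counted. There, 57 genes were higher (0.239%) and 65 lower (0.272%) in Notch3-/- kidneys. Of the 71 genes that passed in obstructed kidneys, 65 had the same sign in healthy kidneys, and 25 also passed there with the same sign, 7 named and 18 unnamed. Notch3, Ccnb1ip1, Dscaml1, Trim40, Lep, Adgrf4 and 4933416I08Rik are those 7. Ccnb1ip1, for example, differed by 3.21 ± 0.26 in healthy kidneys.

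A second set of genes differed in obstructed kidneys with little or no difference in healthy ones. Nap1l5 differed by -0.47 ± 0.24 in healthy kidneys, Krt14 by -0.62 ± 0.23, Fhl3 by -0.03 ± 0.16 and Olfr99 by -0.02 ± 0.36. Olfr99 stood between -8.32 and -7.65 on the healthy arrays. That is about as dim as on the Notch3-/- UUO arrays, where it was not well above background. A difference of Olfr99 in healthy kidneys could therefore not be seen. The difference of the genotype differences, obstructed minus healthy, was 2.50 ± 0.33 for Nap1l5 and -2.04 ± 0.32 for Krt14, with unadjusted p-values of 0.000145 and 0.000400 (limma). Over all genes 0 passed this test (limma, smallest adjusted p = 0.162), and 1705 (7.14%) had an unadjusted p under 0.05. Among the 71 there were 36, and among the 29 named genes 21, but these were picked for their difference in the obstructed arrays that the test also uses.

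**Figure D3:**
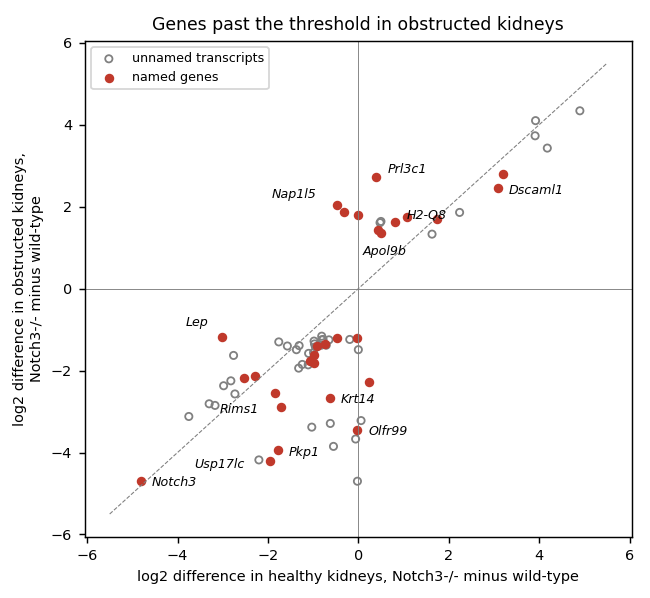
Log2 difference, Notch3-/- minus wild-type, in healthy kidneys (horizontal axis) and in obstructed kidneys (vertical axis) for the 71 genes that passed in obstructed kidneys. Red points are named genes, open points unnamed transcripts, and the dashed line marks equal differences. Notch3 lies on the line near -4.8 and -4.7, while Olfr99, at -0.02 and -3.44, lies far off it. Olfr99 was not well above background on any Notch3-/- UUO array and was about as dim on the healthy arrays.

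Of the 29 named genes that passed, 7 lie on chromosome 17, the chromosome of Notch3: Adgrf4, Gm6034, H2-Q8, Notch3, Olfr99, Treml1 and Trim40. Among all 16603 tested genes with a symbol, 834 (5.02%) lie there. Trim12a had the largest difference of all genes with a symbol that did not pass. It is a member of a family of antiviral Trim genes and stood at 1.24 and 0.93 in wild-type UUO kidneys, with no Notch3-/- UUO array well above background. Those arrays stood at -8.16, -7.29 and -8.14, so that it was at least 216-fold lower (limma, adjusted p = 0.0618). These values are of the brighter of its 2 probes. Over the 18 alternative settings and left-out arrays the Trim12a difference lay between -9.24 and -5.03. The healthy Notch3-/- arrays of Trim12a were unlike each other, at -6.09 and -0.87.

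Interferon response genes are switched on by interferons and mostly act against viruses. All 39 measured members had a higher mean in Notch3-/- UUO kidneys, 32 of them without overlap between the groups (82.1%, against 20.7% of all genes). A single member, Apol9b, passed, and 20 had an unadjusted p under 0.05, all of them higher. The median difference was 0.77, and it was 0.55, 0.98 and 0.69 on the 3 arrays apart. With replicate 1 alone, 34 of 39 lay above both wild-type arrays (40.3% of all genes did), and with replicates 2 and 3 alone 36 of 39 (31.8% of all genes). Across the 18 alternative settings and left-out arrays the median lay between 0.55 and 0.91. In healthy kidneys the median was 0.32.

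Apol9b stood at -0.59 and -0.81 in wild-type UUO kidneys and at 0.55, 0.74 and 0.66 in Notch3-/- UUO kidneys, a difference of 1.35 ± 0.17 (limma, adjusted p = 0.0413). Apol9a, a near copy that the probes may not separate from it, differed by 1.02 ± 0.15 (limma, adjusted p = 0.0618). Isg15, a ubiquitin-like protein, stood at 2.57 and 2.33 against 3.68, 4.07 and 3.77, a difference of 1.39 ± 0.20 (limma, adjusted p = 0.0618). All 3 Notch3-/- arrays lay more than 1 log2 unit above the wild-type arrays for Isg15. Oasl1 differed by 1.17 ± 0.18 and Oas1a, a sensor of double-stranded RNA, by 0.84 ± 0.14 (limma, adjusted p = 0.0631 and 0.0637). Irf7, a regulator that amplifies the response, differed by 1.41 ± 0.34, Ifit3 by 1.45 ± 0.38 and Ifit1 by 1.40 ± 0.33. At the other end, Trim30a differed by 0.16 ± 0.18 and Ifi35 by 0.16 ± 0.12.

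**Figure D4:**
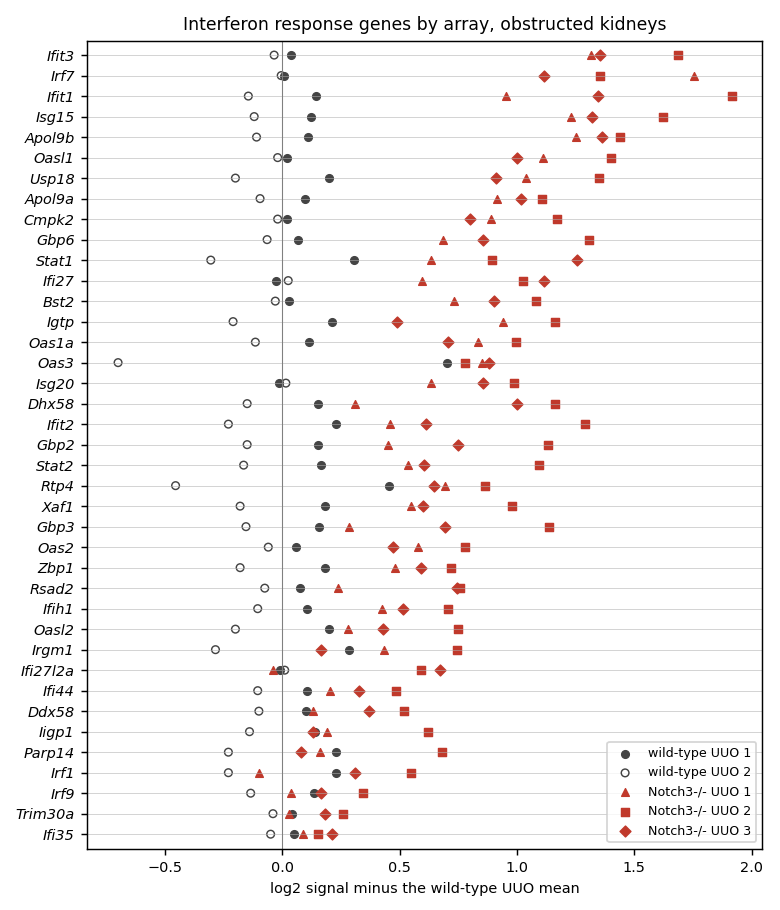
Log2 signal minus the wild-type UUO mean (horizontal axis) of the 39 measured interferon response genes, 1 row a gene, on the 5 UUO arrays. Dark circles are wild-type and red symbols Notch3-/- arrays. For 32 genes all 3 red symbols lie to the right of both circles, from Ifi35 with a difference of 0.16 to Ifit3 with 1.45.

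Because these genes lay higher together, the bases before their start sites were looked at for the core letters of the interferon-stimulated response element, TTTCNNTTTC, on either strand, where N is any base. Overlapping matches were counted. The 4 stretches shown are the 150 bases before the RefSeq start site (GRCm38.p6), 5′ to 3′ on the gene's strand, with matching letters in capitals, for Apol9b, the member that passed, and for Isg15, Oas1a and Ifit1.
Isg15 (chr4:156200819-156200968, minus strand): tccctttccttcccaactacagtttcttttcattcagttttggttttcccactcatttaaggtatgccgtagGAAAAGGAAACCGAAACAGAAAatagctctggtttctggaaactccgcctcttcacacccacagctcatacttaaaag
Apol9b (chr15:77728922-77729071, plus strand): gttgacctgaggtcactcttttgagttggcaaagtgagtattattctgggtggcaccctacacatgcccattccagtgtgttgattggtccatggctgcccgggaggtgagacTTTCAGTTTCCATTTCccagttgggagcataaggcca
Oas1a (chr5:120907526-120907675, minus strand): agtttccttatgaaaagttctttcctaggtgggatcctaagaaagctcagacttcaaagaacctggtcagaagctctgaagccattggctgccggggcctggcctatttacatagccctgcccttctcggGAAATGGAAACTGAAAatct
Ifit1 (chr19:34640739-34640888, plus strand): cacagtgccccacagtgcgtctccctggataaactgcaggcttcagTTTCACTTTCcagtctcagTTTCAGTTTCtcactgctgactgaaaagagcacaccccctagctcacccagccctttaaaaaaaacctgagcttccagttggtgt

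In the full window of 300 bases, 250 before and 50 after the start, 3.44% of the 32851 promoters of the table hold these letters, as do 503 of 13145 tested genes with a promoter there (3.83%). Of the 28 interferon list members with a promoter, 17 hold them (60.7%). The 17 had a median difference of 0.83, with 15 lying higher without overlap, and the 11 members without the letters a median of 0.71, with 9 lying higher. The 486 tested genes that hold the letters but are not on the list had a median of 0.05, with 26.5% higher and 19.5% lower without overlap. Of the 12642 genes without them, 22.3% lay higher and 19.4% lower, with a median of 0.02. A match is a description of the letters and not of a bound site. The share among interferon list members follows from which genes the list holds, not from the levels on these arrays.

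Genes of antigen presentation moved less evenly. Of 30 measured, 14 lay higher (46.7%) and 5 lower (16.7%) without overlap, against 20.7% and 22.9% of all genes, and H2-Q8 passed. The median was 0.19, or 0.12, 0.26 and 0.16 on the arrays apart. H2-T24 and H2-K1, both of class I, differed by 0.89 ± 0.15 and 0.77 ± 0.18, while H2-Ob, of the class II pathway of B cells, differed by -1.27 ± 0.23 (limma, adjusted p from 0.0709 to 0.124).

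T and NK cell markers lay mostly higher, by a little. Of 23 measured, 14 lay higher (60.9%) and 3 lower (13.0%) without overlap, against 20.7% and 22.9% of all genes. There were 7 higher and 1 lower with an unadjusted p under 0.05, and 0 passed (limma). The median was 0.46 and close to that on each array, at 0.51, 0.47 and 0.54, against -0.62 in healthy kidneys. Over the alternative settings it lay between 0.23 and 0.72. Cd6, a T cell surface receptor, stood at -2.13 and -1.96 in wild-type and at -1.36, -1.18 and -0.96 in Notch3-/- UUO kidneys, a difference of 0.88 ± 0.16 (limma, adjusted p = 0.0843). Over the 18 alternative settings and left-out arrays the Cd6 difference lay between 0.01 and 1.04. The T cell kinase Zap70 differed by 0.67 ± 0.15 and Tbx21, the T-bet factor of type 1 responses, by 0.57 ± 0.16. Ifng, the interferon made by T and NK cells, stood at -5.59 and -5.55 against -3.83, -4.11 and -4.0, a difference of 1.59 ± 0.26 (limma, adjusted p = 0.0637), and was well above background on 1 of the 2 wild-type arrays. Cxcr6, a chemokine receptor of T cells, differed by 0.81 ± 0.18. The T cell surface genes Cd4 and Cd3e lay lower without overlap, as did Prf1 at -1.04 ± 0.42. The summed signal of the list did not separate the groups, at 7.83 and 9.28 in wild-type and 8.67 to 9.26 in Notch3-/- UUO kidneys. In whole-tissue RNA, fewer cells of a type and less RNA per cell cannot be told apart, here and in the lists that follow.

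Chemokines went both ways, and 0 of 16 CC and 0 of 13 CXC and related chemokines passed (limma; 3 and 4 higher, 2 and 5 lower with an unadjusted p under 0.05). Of the CC chemokines 5 lay higher (31.2%) and 4 lower (25.0%) without overlap. Of the others 4 lay higher (30.8%) and 5 lower (38.5%), where the shares of all genes were 20.7% and 22.9%. Ccl4, an attractant of T and NK cells and monocytes, stood at -2.45 and -2.18 in wild-type and at -0.55, -1.35 and -1.42 in Notch3-/- UUO kidneys, a difference of 1.21 ± 0.33 (limma, adjusted p = 0.167). Ccl5, another T cell attractant, differed by 0.79 ± 0.27. The interferon-induced Cxcl9 and Cxcl10 differed by 1.23 ± 0.35 and 0.54 ± 0.22, and Xcl1 of T and NK cells by 0.67 ± 0.17. These 5 genes lay higher on each Notch3-/- array than on both wild-type arrays, but they were picked from lists that went both ways.

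Other chemokines had lower means, none of them past the threshold. Cxcl1, a neutrophil attractant, stood at 2.46 and 1.43 in wild-type and at -0.42, 0.93 and 0.82 in Notch3-/- UUO kidneys, a difference of -1.50 ± 0.48 (limma, adjusted p = 0.207), with replicate 1 the lowest. Cxcl2 differed by -1.54 ± 0.45. Ccl24, an eosinophil attractant, had the smallest p of the CC chemokines, at -1.10 ± 0.19 (limma, adjusted p = 0.0735). Ccl2, the main monocyte attractant, stood at 1.80 and 2.23 against 1.75, 1.15 and 1.14, a difference of -0.66 ± 0.26 (limma, adjusted p = 0.274). Replicate 1 of Ccl2 lay just below wild-type replicate 1. Of 35 cytokines and their receptors 3 lay higher (8.57%) and 11 lower (31.4%) without overlap, against 20.7% and 22.9% of all genes. None passed (limma; 1 in each direction with an unadjusted p under 0.05). Their median was -0.21, or -0.33, -0.13 and -0.11 on the arrays apart. Il1rl1, the receptor of interleukin-33, differed by -0.92 ± 0.18. The median of the CC chemokines was -0.22 in the fit and 0.01, -0.16 and -0.09 on the arrays apart, so the list has no settled sign.

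Macrophage and monocyte markers showed no common direction, with 7 of 30 higher (23.3%) and 9 lower (30.0%) without overlap, against 20.7% and 22.9% of all genes. The median of these markers was -0.21, or -0.05, -0.30 and -0.09 on the arrays apart. Their summed signal was 184 and 194 in wild-type and 198 to 215 in Notch3-/- UUO kidneys. Single members lay far lower: Gpnmb, a glycoprotein of lipid-laden macrophages, stood at -1.31 and -0.34 in wild-type and at -5.63, -4.40 and -3.66 in Notch3-/- UUO kidneys, a difference of -3.73 ± 0.56 (limma, adjusted p = 0.0618). The lectin gene Cd209a differed by -1.81 ± 0.29 and Arg1, an enzyme of alternatively activated macrophages, by -2.07 ± 0.40 (limma, adjusted p = 0.0637 and 0.0915). Neutrophil markers had a median of 0.00, with 2 of 13 higher and 4 lower without overlap.

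**Figure D5:**
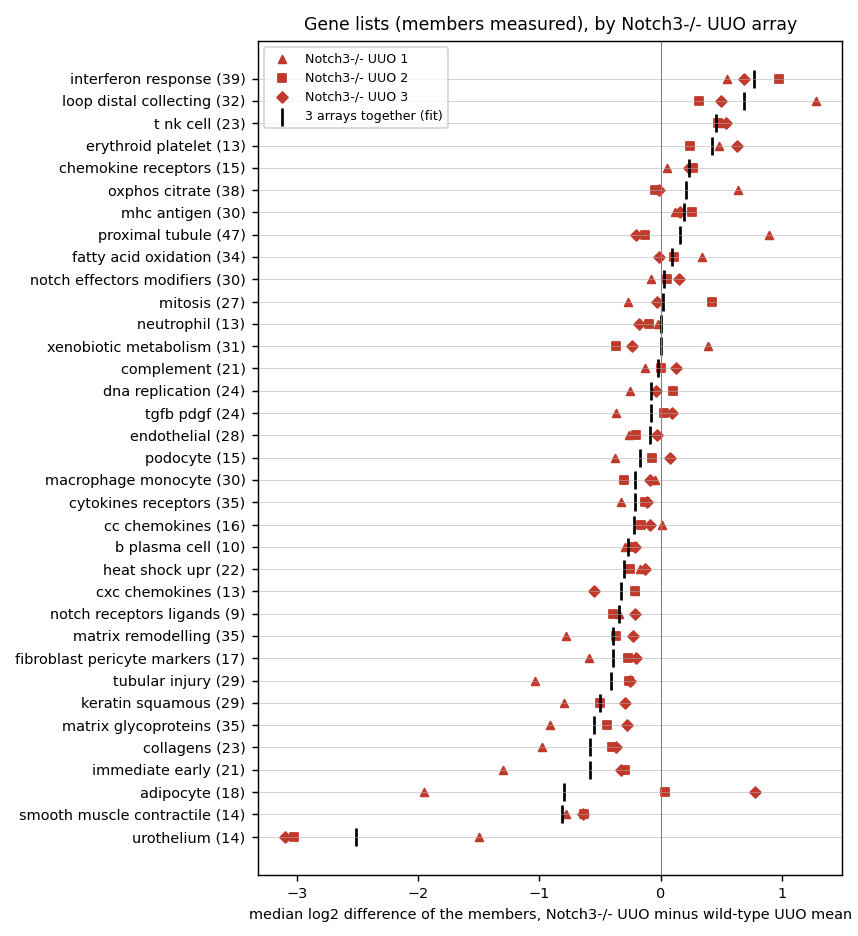
Median log2 difference of the members of each gene list from the wild-type UUO mean (horizontal axis), for each Notch3-/- UUO array (red symbols) and for the fit of all 3 (black bars). Numbers in brackets are members measured, and the lists of adrenal, sex chromosome and sex-biased genes are left out. The interferon list lies at 0.77 and the urothelium list at -2.51, and for the lists of tubule, matrix and injury genes replicate 1 lies apart from replicates 2 and 3.

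Collagens lay lower in obstructed kidneys without Notch3, none of them past the threshold. Of 23 measured, 15 lay lower (65.2%, against 22.9% of all genes) and 2 higher without overlap, and 10 had an unadjusted p under 0.05, all lower. The median was -0.58, and it was -0.98 on replicate 1 and -0.40 and -0.37 on replicates 2 and 3. With replicates 2 and 3 alone, 15 still lay below both wild-type arrays (32.7% of all genes did). The summed signal was 224 and 182 in wild-type and 100, 145 and 143 in Notch3-/- UUO kidneys. The median in healthy kidneys was -0.22.

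Col1a1, a chain of the main scar collagen, stood at 5.28 and 4.77 in wild-type and at 3.78, 4.38 and 4.27 in Notch3-/- UUO kidneys, a difference of -0.88 ± 0.33 (limma, adjusted p = 0.252). Its groups do not overlap, and its difference in healthy kidneys was -0.10 ± 0.36. Col1a2 differed by -0.78 ± 0.25 and Col3a1 by -0.62 ± 0.50, where replicates 2 and 3 stood at 4.33 and 4.28 beside a wild-type array at 4.51. The smallest p was that of Col6a2, a chain of the beaded-filament collagen VI, at 0.35 and 0.19 against -1.45, -1.29 and -0.90, a difference of -1.48 ± 0.28 (limma, adjusted p = 0.0891). Col6a3 of the same collagen differed by -1.05 ± 0.29, and Col16a1 by -0.63 ± 0.15. The Col4a4 and Col4a5 chains of the glomerular basement membrane lay higher without overlap, at 0.48 ± 0.30 and 0.35 ± 0.21.

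Matrix glycoproteins also lay mostly lower, with 19 of 35 lower (54.3%, against 22.9% of all genes) and 0 higher without overlap. Their median was -0.55, and 0 passed (limma; 14 lower and 0 higher with an unadjusted p under 0.05). On the arrays apart the median was -0.91, -0.44 and -0.28, and in healthy kidneys it was -0.69. Ccn2, the connective tissue growth factor, stood at 4.65 and 3.74 in wild-type and at 2.77, 2.95 and 2.97 in Notch3-/- UUO kidneys, a difference of -1.30 ± 0.25 (limma, adjusted p = 0.0915). Thbs2 differed by -1.24 ± 0.29, the proteoglycan gene Bgn by -1.03 ± 0.27 and the microfibril gene Mfap5 by -2.27 ± 0.64. Fn1, fibronectin, stood at 5.05 and 4.42 against 3.58, 4.05 and 4.23, a difference of -0.78 ± 0.30 (limma, adjusted p = 0.264). Replicate 3 of Fn1 lay just below wild-type replicate 2. Of 35 matrix remodelling genes 17 lay lower (48.6%) and 1 higher without overlap, with a median of -0.39, or -0.78, -0.37 and -0.23 on the arrays apart. The healthy median of this list was -0.48. Mmp14 and Mmp12, matrix metalloproteinases, differed by -1.12 ± 0.27 and -1.40 ± 0.32, and Mmp23 by -0.87 ± 0.18. Plau, the plasminogen activator urokinase, was the member that lay higher, at 0.61 ± 0.14.

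Growth factors of the TGF-beta and PDGF families did not share a direction, with 4 of 24 higher (16.7%) and 5 lower (20.8%) without overlap. Both lie below the shares of all genes, 20.7% and 22.9%. The median of this list was -0.08, or -0.37, 0.03 and 0.09 on the arrays apart. Tgfb1 stood at -0.48 and -0.49 in wild-type and at -0.91, -0.57 and -0.43 in Notch3-/- UUO kidneys, a difference of -0.15 ± 0.23 (limma, adjusted p = 0.786). Its groups overlap. Tgfb3 differed by -1.07 ± 0.34, Inhba by -1.45 ± 0.42 and Bmp4 by 0.47 ± 0.12. Pdgfrb, the receptor that marks pericytes, differed by -0.39 ± 0.29.

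The contractile genes of smooth muscle, the cell type that Notch3 is best known from, had a median below the wild-type mean on all 3 arrays. Of 14 measured, 9 lay lower (64.3%, against 22.9% of all genes) and 1 higher without overlap. There were 7 with an unadjusted p under 0.05, all lower (9.41% of all genes), and 0 passed (limma). The median was -0.81 in obstructed and -0.98 in healthy kidneys, and it was -0.78, -0.63 and -0.64 on the obstructed arrays apart. Wild-type replicate 1 stood above replicate 2 for most of these genes, and the median was -0.51 without replicate 1 and -1.15 without replicate 2. Acta2, the actin of smooth muscle and myofibroblasts, stood at 4.0 and 3.09 in wild-type and at 2.84, 2.18 and 2.46 in Notch3-/- UUO kidneys, a difference of -1.05 ± 0.35 (limma, adjusted p = 0.213). In healthy kidneys Acta2 differed by -1.56 ± 0.38. Myh11, smooth muscle myosin, differed by -1.33 ± 0.44, and the actin-binding Cald1 by -0.77 ± 0.26. Ldb3, a protein of muscle Z-discs, stood at -2.64 and -2.54 against -4.66, -4.84 and -4.58, a difference of -2.10 ± 0.32 (limma, adjusted p = 0.0618). The healthy difference of Ldb3 was -0.17. Of 17 fibroblast and pericyte markers 7 lay lower (41.2%) and 0 higher without overlap, with a median of -0.39, or -0.59, -0.27 and -0.20 on the arrays apart. Their median was further below 0 in healthy kidneys, at -0.86. The pericyte channel gene Kcnj8 differed by -0.94 ± 0.23 and desmin, Des, by -1.02 ± 0.25.

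Urothelial genes, which mark the lining of the renal pelvis and ureter, had the lowest median of the 38 lists, at -2.51. Of 14 measured, 11 lay lower (78.6%, against 22.9% of all genes) and 0 higher without overlap, 8 with an unadjusted p under 0.05, and 0 passed (limma). Krt5, a basal keratin, stood at 0.88 and 1.33 in wild-type and at -2.16, -3.17 and -3.45 in Notch3-/- UUO kidneys, a difference of -4.03 ± 0.95 (limma, adjusted p = 0.128). The uroplakins, plaque proteins of the urothelial surface, followed: Upk3a stood at 0.20 and -0.43 against -2.39, -5.91 and -6.80, and differed by -4.92 ± 1.88. Upk1b differed by -4.21 ± 1.23 and Upk2 by -3.91 ± 1.57. Replicate 1 lay between the groups for these uroplakins. Krt13 differed by -1.73 ± 0.32 and the epithelial factor Grhl3 by -1.85 ± 0.54. The medians on the arrays apart were -1.50, -3.02 and -3.10. In healthy kidneys the median was -1.43, but the arrays overlapped there: the members' mean level was -1.37 and -3.85 on the wild-type and -5.54 and -3.57 on the Notch3-/- arrays. The summed signal did not separate the groups, at 16.2 and 14.6 in wild-type and 6.58, 17.1 and 14.6 in Notch3-/- UUO kidneys, where Krt20 stood at 3.81 and 3.56 on replicates 2 and 3 against 2.59 and 2.48. How much renal pelvis each cortex sample held was not tested. With normexp background correction the median was -1.13. Of 29 keratins and squamous stress genes 16 lay lower (55.2%) and 1 higher without overlap, and Krt14 and Pkp1 of this list passed. The median was -0.50, or -0.80, -0.50 and -0.29 on the arrays apart. Serpinb5, a serpin of epithelium, differed by -3.96 ± 0.87.

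Markers of the distal nephron lay higher. Of 32 markers of Henle's loop, the distal convolution and the collecting duct, 20 lay higher (62.5%, against 20.7% of all genes) and 1 lower without overlap. There were 9 with an unadjusted p under 0.05, all higher, and 0 passed (limma). The median was 0.69, with 1.28 on replicate 1 and 0.32 and 0.50 on replicates 2 and 3. The healthy median of the list was 0.47. Umod, which encodes uromodulin, stood at 6.42 and 6.42 in wild-type and at 7.30, 7.02 and 7.03 in Notch3-/- UUO kidneys, a difference of 0.70 ± 0.15 (limma, adjusted p = 0.110). Umod differed by 0.95 in healthy kidneys too. Atp6v0d2, a proton pump subunit of intercalated cells, differed by 0.51 ± 0.13, and the bicarbonate transporter Slc4a9 of the same cells by 0.67 ± 0.18.

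The proximal tubule gave no common shift of the 3 arrays. Replicate 1 had a median of 0.89 over 47 genes, and replicates 2 and 3 had -0.13 and -0.20, with 0.16 in the fit. Of these genes 7 lay higher and 3 lower without overlap, 14.9% and 6.38%, against 20.7% and 22.9% of all genes. Uroc1 passed, and Slc22a8, an organic anion transporter, stood at -4.79 and -3.38 against -1.63, -2.47 and -2.58, a difference of 1.86 ± 0.45 (limma, adjusted p = 0.137). The amino acid transporter Slc7a8 differed by -1.03 ± 0.25.

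Injury markers of the tubule lay lower as a list, again most on replicate 1. Of 29 measured, 15 lay lower (51.7%, against 22.9% of all genes) and 2 higher without overlap, 9 and 2 with an unadjusted p under 0.05, and 0 passed (limma). The median was -0.41, with -1.04, -0.26 and -0.25 on the arrays apart and 0.07 in healthy kidneys. Sox9, a factor of tubule repair, stood at -0.62 and -0.38 in wild-type and at -1.64, -1.46 and -1.64 in Notch3-/- UUO kidneys, a difference of -1.08 ± 0.15 (limma, adjusted p = 0.0576). Sox9 was equally low on all 3 arrays, and its healthy difference was -0.01. Anxa3, an annexin, differed by -1.02 ± 0.16 (limma, adjusted p = 0.0637). Havcr1, the gene of kidney injury molecule KIM-1, stood at 3.93 and 4.13 against 2.64, 3.27 and 3.61, a difference of -0.85 ± 0.31 (limma, adjusted p = 0.241). Its healthy difference had the opposite sign, at 2.01 ± 0.34 (limma, adjusted p = 0.0680). Healthy levels of Havcr1 were -5.85 and -5.79 in wild-type and -3.50 and -4.12 in Notch3-/- kidneys. Lcn2, which encodes NGAL, overlapped between the groups, with replicate 1 at 3.71 and replicates 2 and 3 at 5.11 and 5.26 around the wild-type values of 4.92 and 4.87. The healthy difference of Lcn2 was 1.55 ± 0.50.

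Of 27 mitosis genes 1 lay higher and 0 lower without overlap, with a median of 0.02, or -0.27, 0.42 and -0.03 on the arrays apart, and in healthy kidneys the median was 2.08. Of 28 endothelial markers 2 lay higher (7.14%) and 10 lower (35.7%) without overlap, against 20.7% and 22.9% of all genes. Their median was -0.09, or -0.26, -0.20 and -0.03 on the arrays apart. Their healthy median was -0.83. Kdr, the main VEGF receptor, differed by -0.77 ± 0.27 and Pecam1 by -0.48 ± 0.16. Immediate early genes had a median of -0.58, with -1.30 on replicate 1 and -0.29 and -0.33 on replicates 2 and 3. Without overlap, 4 of the 21 measured lay lower and 0 higher. The members' mean level was 1.17 and -0.18 in wild-type and -0.96, 0.09 and 0.01 in Notch3-/- UUO kidneys. Replicates 2 and 3 thus lay above wild-type replicate 2. Over the alternative settings the median lay between -1.30 and -0.12, and in healthy kidneys it was -0.48.

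Among genes that did not pass, that lay higher without overlap and that were well above background on all 3 Notch3-/- UUO arrays, most of the largest differences lay on replicates 2 and 3. Within that set Syt10, a synaptotagmin, came first, with wild-type levels of -5.64 and -6.35 and Notch3-/- levels of -0.57, -0.79 and -1.16, a difference of 5.15 ± 1.02 (limma, adjusted p = 0.0936). Syt10 was high on replicate 1 as well. Mmd2 stood at -4.83 on replicate 1 and at -2.13 and -2.03 on replicates 2 and 3, and Kcnn2, a potassium channel gene, at -2.61, -0.48 and -0.52. Npy, Srd5a2, Abcb1b, Grin2c and Pnmt, the enzyme that makes adrenaline, also had their highest levels on replicates 2 and 3. Replicate 1 of Pnmt, at -4.80, lay beside the wild-type arrays at -5.02 and -5.32, while replicates 2 and 3 stood at -0.74 and -0.22. Prlr, the prolactin receptor, differed by 2.95 ± 0.53, with 0.34, 1.73 and 1.75 against -1.20 and -2.15. Among the lower ones, Bhlha9, a transcription factor gene, stood at -1.76 and -1.67 against -5.72, -6.01 and -5.16, a difference of -3.91 ± 0.55 (limma, adjusted p = 0.0576). Olfr71 and 4930473O22Rik were at least 4.53-fold and 7.31-fold lower, and the connexin gene Gjb6 differed by -3.94 ± 1.24.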

How the data were processed

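Kidney cortex RNA was measured on 9 Agilent 1-colour arrays in 4 labelled groups. Per the file headers, the deposited intensity had its background removed by Feature Extraction 10.7.3.1 with no normalization between arrays; the submitters' processing notes name version 10.5. The deposited value table holds the authors' log2 values, with column medians of 7.02 to 7.05 and correlations with the processed signals of 0.971 to 0.986 over all probes of an array. Its normalization method was not given in the sources used here, and genes were not centred.

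Without outlier spots, each processed signal was put on the log2 scale relative to the 75th percentile of the array's non-control spots, and replicate spots were averaged. The filter kept 29336 of 39429 probes, those well above background on 2 or more of the 9 arrays. Probe accessions were matched to a RefSeq table of GRCm38.p6, which named 27234 probes and left 12195 unnamed. The brightest probe stood for each gene. A limma 3.58.1 model (R 4.3.3) with 1 mean per group used all 9 arrays and had 5 residual degrees of freedom. The arrays' grid was built on mm9, so gene coordinates are given only with RefSeq promoter sequences. The steps were tested on simulated data.

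Alternatives were quantile normalization, normexp with an offset of 50 on median spot signals, the authors' table, other filters, probe means per gene, only the 5 UUO arrays, trended and robust moderation, array weights, slide as a random block, a replicate block, left-out arrays, a covariate marking the high-Xist arrays, a threshold of 0.01 and a required 2-fold difference. The groups share replicate numbers: same-numbered UUO samples deviated from their group means with correlations of -0.17 and -0.15. The deviations of 2 wild-type arrays mirror each other, so these values cannot show whether same-numbered samples were paired.

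The comparison, the 38 gene lists and the genes named were chosen with earlier results of these data known, so no list is independent evidence. The text could name every gene with a symbol past the threshold, the 4 lowest p-values of each list, and Notch1 to Notch4, Jag1, Jag2, Dll1, Dll4, Heyl, Hey1, Hes1, Acta2, Fn1, Col1a1, Col3a1, Pdgfrb, Tgfb1, Ccl2, Havcr1 and Lcn2. It could also name the 10 largest differences in each direction that did not pass, among genes whose groups do not overlap and whose higher group was well above background on all its arrays, Xist, Ddx3y and Cyp11b1, and 2 unnamed transcripts in each direction. Members named beyond that were chosen after their values were seen. One gene that the rule names is not reported here.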

Additional observations from a re-analysis of the deposited data

Results flagged for a closer look

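The median genotype difference of 4 gene lists differed in sign between obstructed and healthy kidneys on every Notch3-/- array taken apart. Some of these medians lay close to 0, and the change of sign was not tested. For T and NK cell markers the median was 0.46 in obstructed and -0.62 in healthy kidneys. For chemokine receptors it was 0.23 and -0.26, and for tubular injury markers -0.41 and 0.07. The healthy Notch3-/- arrays apart had 0.03 and 0.20 for tubular injury markers. For neutrophil markers the 3 obstructed arrays had medians of -0.02, -0.10 and -0.18, with 0.00 in the fit, against 0.29 in healthy kidneys. Groups of 2 or 3 arrays are too small for a test of outlying samples.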

How the results depend on the processing

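The counts of genes past the threshold depended on the processing. Against 19 higher and 52 lower, they were 71 and 70 with quantile normalization, 101 and 112 with normexp, 156 and 142 with the authors' table, 87 and 516 with only the 5 UUO arrays, 44 and 55 with trended and robust moderation, 1821 and 2300 with array weights, 1 and 2 with slide as a random block, 75 and 56 with a covariate marking the high-Xist arrays, and 3 and 2 at a threshold of 0.01. Leaving out 1 array gave 1 to 217 higher and 0 to 111 lower. With a replicate block, 0 and 0 passed (limma, lowest adjusted p = 0.0879, while 2422 had an unadjusted p under 0.05), as without Notch3-/- replicates 2 and 3, where the lone array is assumed to vary like the other groups. The share of calls that were higher was 26.8%, against 50.4% with quantile normalization, 47.4% with normexp, 52.3% with the authors' table, 44.4% with trended and robust moderation, 14.4% with only the UUO arrays, 44.2% with array weights and 57.3% with the Xist covariate. The 29 named calls included 28 that also passed with quantile normalization, 14 with normexp and 21 with the authors' table. Without the filter on dim probes the median of all genes was -0.11.

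Notch3 kept its direction throughout, and lost its call in 3 settings: -4.82 with the replicate block (adjusted p = 0.174), -5.10 without Notch3-/- replicates 2 and 3 (0.0576) and without wild-type replicate 2 (-4.81, adjusted p = 0.0731), with -4.82 to -4.48 over the left-out arrays. Dscaml1 was -1.21 by the mean of its probes, and Lep was 0.01 with normexp. Several list medians moved by more than the spread of the Notch3-/- arrays. Notch receptors and ligands were at -0.13 with normexp and -0.17 with the authors' table. Urothelium was at -1.13 and -1.43 there, and smooth muscle at -0.62 and -0.66, with -0.72 under array weights, -0.91 with the replicate block and -1.15 to -0.51 with 1 array left out. Without Notch3-/- replicates 2 and 3, and equally with the Xist covariate, collagens were at -0.98, matrix glycoproteins at -0.91, the interferon list at 0.55, urothelium at -1.50 and CC chemokines at 0.01. CC chemokines were also at -0.11 with array weights, 0.02 with slide as a random block and -0.29 to 0.02 with 1 array left out, and the CXC list at -0.49 to -0.11. Of 18 settings, the median also moved in 12 for T and NK cell markers (0.23 to 0.72), in 9 for heat shock genes (-0.37 to -0.14), in 8 for chemokine receptors (0.05 to 0.32) and for B and plasma cell markers (-0.45 to 0.08), in 7 for neutrophil markers (-0.21 to 0.14) and in 4 for keratins and squamous genes (-0.80 to -0.35). Without Notch3-/- replicates 2 and 3, tubular injury was at -1.04, loop and distal tubule at 1.28 and matrix remodelling at -0.78. The cause of these shifts was not tested.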
